A study of Mus musculus with 4 samples.

Results

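The genes described here are 10 genes that cells induce under low oxygen and that act in signalling, transcription and stress responses: Vegfa, Adm, Car9, Kdm3a, Bhlhe40, Mxi1, Ankrd37, Ddit4, Higd1a and Ero1l, now named Ero1a. They were chosen by symbol with earlier results of these data known, as were the lists of other genes set beside them. Counts of calls and medians given beside those of all tested genes are therefore description, not a test. Each symbol of the 10 matched 1 row of the 37620 genes in the count table. All 10 had enough counts to be tested, among 16264 tested genes. RNA-seq was performed in mouse embryonic stem cells (mESCs) in 2 groups of 2 libraries. Both groups come from mESCs whose endogenous CTCF, a DNA-binding protein that organizes chromatin loops, carries a tag for degradation by auxin. In both, the tagged protein was removed with auxin and CTCF was supplied from a vector. WT_CTCF mESCs received the wild-type protein, and MUT_CTCF mESCs received CTCF mutated at T668, the threonine that carries the sugar modification O-GlcNAc. Each line was a clone picked for a level of exogenous CTCF close to that of the endogenous protein, so the mutation and the clone cannot be told apart. The cells grew with serum and LIF, and the labels name no change of oxygen in either group. The comparison addresses how gene expression differs when O-GlcNAcylation of CTCF is deficient. Total counts were 40977464 and 40824156 for WT_CTCF and 40899401 and 40524694 for MUT_CTCF. The methods of the study call the libraries of each line biological replicates, and whether these were separate cultures is not stated there or in the labels. Each p-value thus rests only on the spread between these libraries, shared over the tested genes.

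Under normal oxygen, prolyl hydroxylases of the EGLN family mark the alpha subunits of the hypoxia-inducible factor (HIF), and the VHL ubiquitin ligase then sends them to degradation. When oxygen falls, HIF alpha accumulates, pairs with ARNT and binds short core letters in target genes. Its targets include growth factors, enzymes of acid balance, regulators of transcription and brakes on growth, and several of them also respond to amino acid or endoplasmic reticulum stress.

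Ctcf had 18273 and 18625 counts in WT_CTCF against 18954 and 19233 in MUT_CTCF mESCs. Endogenous and exogenous transcripts were not separated. The log2 fold change of MUT_CTCF over WT_CTCF was 0.044 (edgeR's quasi-likelihood test, adjusted p = 0.499). Mgea5, which encodes the enzyme that removes O-GlcNAc, had a log2 fold change of -0.037 (same edgeR test, adjusted p = 0.775), and Ogt, which encodes the enzyme that adds it, one of -0.096 (adjusted p = 0.255).

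Of the 10 hypoxia-induced genes, 4 were higher in MUT_CTCF mESCs at an adjusted p under 0.05 by the quasi-likelihood test of edgeR, namely Bhlhe40, Ddit4, Ero1l and Vegfa. Among all tested genes 1.56% were higher at this threshold. None of the 10 was lower by this test, against 1.61% of all tested genes. At an unadjusted p under 0.05, 5 were higher and 1 was lower, against 7.61% and 7.65% of all tested genes, which are also the shares to set beside the unadjusted counts of the lists further on. DESeq2 and edgeR's exact test also called 4 higher and 0 lower, where 0.867% and 1.67% of all tested genes were higher and 0.99% and 1.51% lower. DESeq2 withholds adjusted p-values from genes of low counts and gave one to 7 of the 10 genes and to 9642 of all tested genes. Of these 9642 genes it called 141 higher and 161 lower. With a fold change above 2 and an unadjusted p under 0.05, Bhlhe40 was the 1 gene called higher, where 0.947% of all tested genes were higher and 0.357% lower. The other 3 calls were changes of less than 2-fold. In bulk RNA, more cells with a transcript and more of it per cell cannot be told apart. For 6 of the 10, both libraries of MUT_CTCF exceeded both of WT_CTCF, a separation seen in 22.3% of all tested genes, and for Kdm3a and Ankrd37 both were below, as for 22.3% of all tested genes. The groups overlapped for Adm and Car9. The median log2 fold change of the 10 genes was 0.38, against 0.0034 over all tested genes. Of the 10 values 8 were positive, those of Adm and Car9 among them, against 8267 of all 16264 tested genes. Over all tested genes, 253 were higher and 262 lower at an adjusted p under 0.05, and with scaling by library size only 260 and 152. With either MUT_CTCF library left out, edgeR called 0 of the 10 genes and 0 genes of the whole table at an adjusted p under 0.05. With WT_CTCF replicate 1 or 2 left out, 4 of the 10 were called higher, against 0.765% and 0.826% of the genes then tested, and 0 lower, against 0.371% and 0.602%. The median was 0.17 without WT_CTCF replicate 2.

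**Figure D1:**
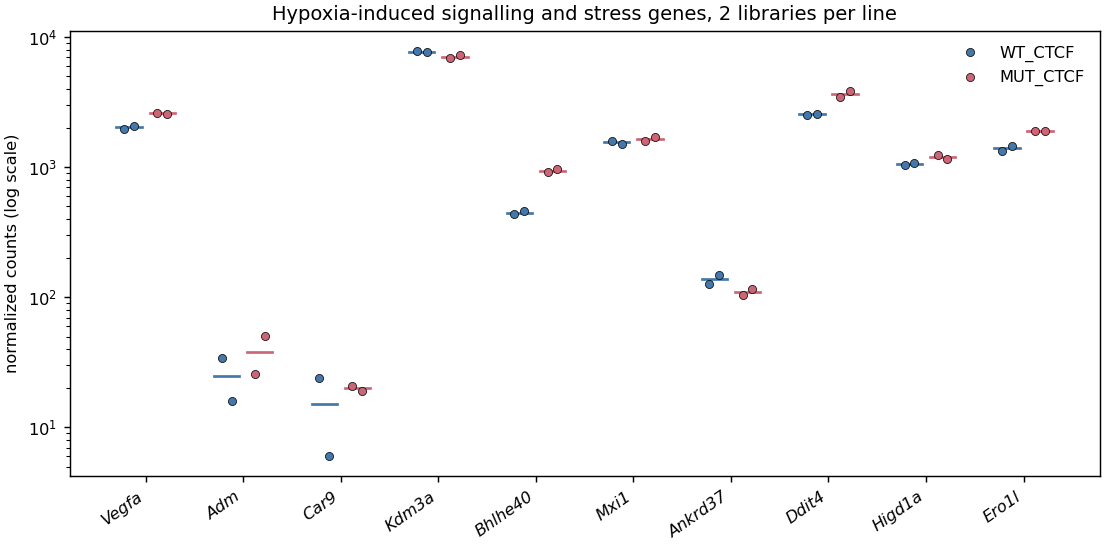
Normalized counts (counts scaled to the mean library, log axis) of the 10 genes in each library, with blue points for WT_CTCF, red points for MUT_CTCF and a line at the mean of the 2 libraries. The MUT_CTCF points of Bhlhe40 (913.1 and 976.7) stand clear of the WT_CTCF points (439.7 and 459.1), whereas those of Adm and Car9 overlap.

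Among secreted factors and enzymes of acid balance, Vegfa encodes the growth factor that draws new blood vessels into tissue short of oxygen. It lies on the minus strand of chromosome 17 (46153942 to 46169326, mm9) and shares no exon position with another gene. Its counts were 1976 and 2080 in WT_CTCF against 2658 and 2546 in MUT_CTCF mESCs. Both MUT_CTCF libraries were high, and the gap between the groups was wider than that within either. The means were 2032 ± 74.8 and 2597 ± 54.4 normalized counts (SD, n = 2), a fold change of 1.28. On the log2 scale the change was 0.35 (standard error 0.059, edgeR's quasi-likelihood test, adjusted p = 5.01e-05). The call was lost without a filter on low counts, where the log2 fold change was 0.35 (edgeR, adjusted p = 0.0855, from 5.2e-07 to 0.0855 over its 8 other settings), and without MUT_CTCF replicate 1 or 2 (edgeR, adjusted p = 0.434 and 0.383). The other genes of its family gave no call. Of the 9 other VEGF ligands and receptors, all tested, 0 passed an adjusted p under 0.05 in edgeR's quasi-likelihood test or its exact test, nor did any of the 3 with an adjusted p in DESeq2, with 1 higher and 1 lower at an unadjusted p under 0.05. Nrp2, a co-receptor, had counts of 417 and 373 in WT_CTCF and 549 and 459 in MUT_CTCF mESCs and a log2 fold change of 0.35 (edgeR, adjusted p = 0.13). Figf, the ligand VEGF-D, had counts of 139 and 153 against 107 and 94 and a log2 fold change of -0.54 (edgeR, adjusted p = 0.245).

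Adm encodes adrenomedullin, a peptide that widens blood vessels, and its counts were low in every library. It had 34 and 16 counts in WT_CTCF and 26 and 50 in MUT_CTCF mESCs, on chromosome 7 (117771175 to 117773331, plus strand). The higher WT_CTCF library lay above the lower MUT_CTCF library. Its log2 fold change of 0.60 had a 95% confidence interval from -0.46 to 1.65 (edgeR, adjusted p = 0.665), and it ran from 0.040 to 1.24 with each library left out. A difference of either sign was therefore within what these counts allow. Adm2, the related peptide intermedin, had 25 and 33 counts in WT_CTCF and 61 and 65 in MUT_CTCF mESCs. Its groups did not overlap, and its log2 fold change of 1.11, with a standard error of 0.412, missed the threshold (edgeR, adjusted p = 0.142). Of the receptor genes for these peptides, Calcrl had 0 and 0 counts in WT_CTCF and 1 and 0 in MUT_CTCF libraries, too few to be tested. In a library at 0, up to 3 counts are still allowed, or at most 0.0740 CPM (counts scaled by library size), a limit that covers counting error only. Ramp2, a receptor partner, had a log2 fold change of -0.20 (edgeR, adjusted p = 0.847) and shares exon bases with Vps25 on the same strand. Of the 5 tested genes in the adrenomedullin list, 0 passed in edgeR's quasi-likelihood test or its exact test, and DESeq2 gave an adjusted p, not passing, to 1 gene, which was neither Adm2 nor Ramp2, with 1 higher and 0 lower at an unadjusted p under 0.05.

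Car9 encodes a membrane carbonic anhydrase that helps cells export acid. It lies on chromosome 4 (43519838 to 43526601, plus strand) and had 24 and 6 counts in WT_CTCF and 21 and 19 in MUT_CTCF mESCs. The WT_CTCF libraries differed more from each other than from the MUT_CTCF libraries. Its log2 fold change of 0.41 had a 95% confidence interval from -0.95 to 1.76 (edgeR, adjusted p = 0.854), and it moved to -0.27 without WT_CTCF replicate 2 and to 1.71 with replicate 1 of WT_CTCF left out. The sign of a change in Car9 was thus not settled by these libraries. Car12, another membrane carbonic anhydrase known as a hypoxia target, was better counted, with 87 and 120 counts in WT_CTCF and 205 and 221 in MUT_CTCF libraries. It was higher in MUT_CTCF mESCs, by 1.03 on the log2 scale (standard error 0.211, edgeR, adjusted p = 0.0013). Without WT_CTCF replicate 1 its log2 fold change was 0.82 (edgeR, adjusted p = 0.0528), and without a filter 1.03 (edgeR, adjusted p = 0.186, from 0.000139 to 0.186 over its 7 other settings). Car12 was the 1 called gene among 11 tested carbonic anhydrases, whose median log2 fold change was 0.27. This median was 0.14 without MUT_CTCF replicate 1, 0.076 over the 9 genes with at least 10 counts in every library and 0.073 with halved counts. DESeq2 gave Car12 no adjusted p and called 0 of the 2 carbonic anhydrases that had one.

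Among regulators of transcription and chromatin, Bhlhe40 had the largest log2 fold change of the 10 genes in the fit of all 4 libraries. Without WT_CTCF replicate 1, Car9 (1.71) and Adm (1.24) lay above it (1.04). Bhlhe40 encodes a basic helix-loop-helix repressor of the circadian clock and of differentiation genes, and lies on the plus strand of chromosome 6 (108610623 to 108616919). Its counts were 439 and 458 in WT_CTCF against 921 and 972 in MUT_CTCF mESCs. The means were 449.4 ± 13.7 and 944.9 ± 45.0 normalized counts (SD, n = 2), a fold change of 2.10. Its log2 fold change was 1.07 (standard error 0.102, edgeR's quasi-likelihood test, adjusted p = 1.5e-11), and by p it ranked 8 among the 16264 tested genes. Both MUT_CTCF libraries were at about the same height, and the log2 fold change stayed between 1.02 and 1.12 with each library left out. The call was lost without MUT_CTCF replicate 1 or 2 (edgeR, adjusted p = 0.138 and 0.196). Bhlhe40 shares 118 exon bases with 0610040F04Rik on the opposite strand, and whether counting used strand is not given in the sources used here. That neighbour had 1 and 3 counts in WT_CTCF and 4 and 10 in MUT_CTCF libraries, far fewer than Bhlhe40. Its closest relative, Bhlhe41, had 14 and 34 counts in WT_CTCF and 48 and 37 in MUT_CTCF libraries. The groups of Bhlhe41 did not overlap, and its log2 fold change of 0.81, with a standard error of 0.509, missed the threshold (edgeR, adjusted p = 0.481) and ran from 0.31 to 1.59 with each library left out.

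Kdm3a, a demethylase of histone H3 lysine residues, was the most highly counted of the 10 genes. It lies on chromosome 6 (71538968 to 71582899, minus strand), with 7765 and 7655 counts in WT_CTCF and 7017 and 7223 in MUT_CTCF mESCs. Here the MUT_CTCF libraries were the low ones and the groups did not overlap. Its log2 fold change of -0.12 had a 95% confidence interval from -0.19 to -0.046 and did not pass (edgeR, adjusted p = 0.0586). With a filter of at least 10 counts in every library it passed with a log2 fold change of -0.12 (edgeR, adjusted p = 0.0448, from 0.0282 to 0.325 over its 8 other settings). Its relative Kdm3b had 12681 and 12351 counts against 11861 and 11584, and a log2 fold change of -0.10 (edgeR, adjusted p = 0.0702). Of 17 other demethylases with a Jumonji domain, all tested, 1 was higher and 0 were lower at an adjusted p under 0.05 in edgeR's quasi-likelihood test and in DESeq2, which gave 14 of them an adjusted p. At an unadjusted p under 0.05, 2 were higher and 2 lower. The called gene was Kdm6b, a demethylase of the Polycomb mark, at a log2 fold change of 0.17 (standard error 0.042, edgeR, adjusted p = 0.0126). Its adjusted p was 0.310 without WT_CTCF replicate 1 and 0.241 without a filter (edgeR, from 0.00324 to 0.241 over its 8 other settings).

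Mxi1 encodes a MAX partner that opposes MYC, and had 1597 and 1510 counts in WT_CTCF and 1616 and 1690 in MUT_CTCF libraries (chromosome 19, 53384996 to 53450300, plus strand). Car9 and Mxi1 share exon bases with Gm12454 and Gm10197 on the opposite strand, which had at most 6 and 0 counts in any library. The groups of Mxi1 lay next to each other without overlap, and the log2 fold change of 0.084 had a 95% confidence interval from -0.054 to 0.22 (edgeR, adjusted p = 0.635). A rise as large as that of Vegfa lay outside this interval. In a list of 13 tested genes, made of other MYC network genes and Bhlhe41, Myc itself was the 1 called gene and was lower. Myc had 779 and 839 counts in WT_CTCF and 657 and 569 in MUT_CTCF libraries, a log2 fold change of -0.41 (standard error 0.101, edgeR, adjusted p = 0.0115). Its adjusted p was 0.145 without WT_CTCF replicate 2 and 0.249 without a filter (edgeR, from 0.00283 to 0.249 over its 8 other settings).

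Ankrd37, a small ankyrin repeat protein, had 127 and 147 counts in WT_CTCF and 105 and 115 in MUT_CTCF libraries. It lies on chromosome 8 (47082256 to 47085221, minus strand). Its MUT_CTCF libraries were the low ones, with a log2 fold change of -0.32 and a 95% confidence interval from -0.79 to 0.15 (edgeR, adjusted p = 0.577). Ankrd37 shares 349 exon bases with Lrp2bp and 57 with Ufsp2, both on the opposite strand. Lrp2bp had at most 9 counts, whereas Ufsp2 had 841 and 683 counts in WT_CTCF and 815 and 733 in MUT_CTCF libraries, more than Ankrd37 itself. Whether and in which direction the shared bases changed the counts of Ankrd37 was not tested.

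**Figure D2:**
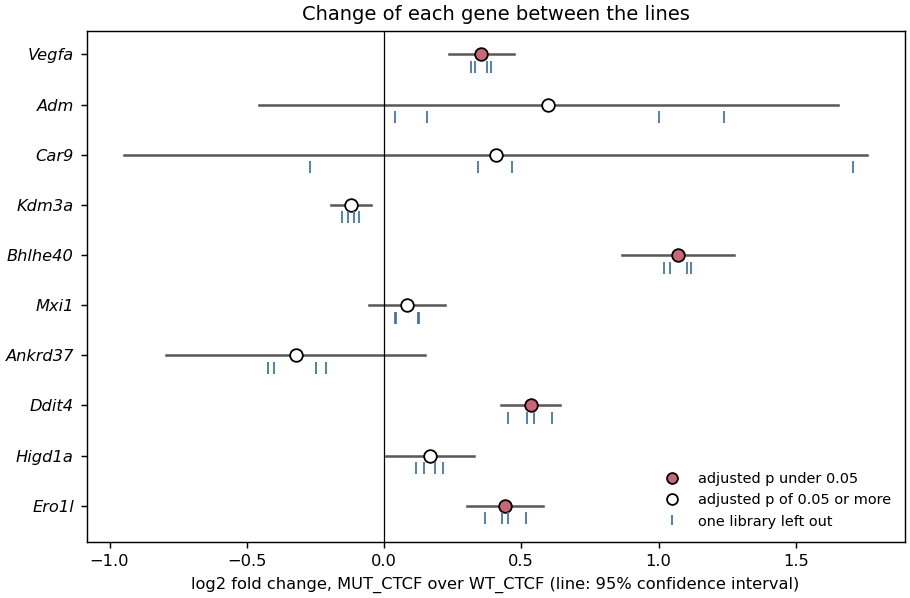
Log2 fold change of MUT_CTCF over WT_CTCF for each of the 10 genes, with its 95% confidence interval (line), a filled point at an adjusted p under 0.05 and blue ticks for the value with each library left out. The intervals of Bhlhe40, Ddit4, Ero1l and Vegfa lie above 0 with their ticks close by, whereas the ticks of Car9 run from -0.27 to 1.71.

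Among genes of the stress response, Ddit4 encodes REDD1, which slows growth by restraining mTORC1. It lies on the minus strand of chromosome 10 (59412423 to 59414518) and shares no exon position with another gene. Its counts were 2523 and 2566 in WT_CTCF against 3520 and 3876 in MUT_CTCF mESCs. The 2 WT_CTCF libraries were nearly alike, and both MUT_CTCF libraries were well above them. The means were 2550 ± 31.8 and 3692 ± 286.3 normalized counts (SD, n = 2), a fold change of 1.45. The log2 difference was 0.53 (standard error 0.054, edgeR's quasi-likelihood test, adjusted p = 9.79e-11), which ranked 11 by p among the tested genes. With MUT_CTCF replicate 1 or 2 left out it was 0.61 or 0.45, and the call was lost (edgeR, adjusted p = 0.134 and 0.253). Of the 18 other genes of the mTORC1 list, all tested, 0 passed in edgeR's quasi-likelihood test or its exact test, nor did the 17 with an adjusted p in DESeq2, with 0 higher and 2 lower at an unadjusted p under 0.05. Sesn2, another brake on mTORC1 that responds to stress, had 12582 and 12439 counts in WT_CTCF and 11764 and 11918 in MUT_CTCF libraries. Its log2 fold change was -0.085 (edgeR, adjusted p = 0.147), and that of Akt1s1, an inhibitory subunit of mTORC1, was -0.14 (edgeR, adjusted p = 0.219). The relative of Ddit4, Ddit4l, had 964 and 909 counts against 874 and 791, and a log2 fold change of -0.18 (standard error 0.090, edgeR, adjusted p = 0.347).

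Ero1l encodes the oxidase that passes electrons from protein disulfide isomerase to oxygen in the endoplasmic reticulum. It lies on chromosome 14 (45902879 to 45938237, minus strand) and had 1322 and 1468 counts in WT_CTCF against 1903 and 1901 in MUT_CTCF mESCs. The MUT_CTCF libraries were nearly identical and both were above the WT_CTCF libraries. The means were 1398 ± 104.2 and 1898 ± 16.6 normalized counts (SD, n = 2), a fold change of 1.36. Its log2 fold change was 0.44 (standard error 0.069, edgeR's quasi-likelihood test, adjusted p = 1.48e-05). The call was lost without a filter, where the log2 fold change was 0.44 (edgeR, adjusted p = 0.0895, from 2.81e-08 to 0.0895 over its 8 other settings), and without MUT_CTCF replicate 1 or 2 (edgeR, adjusted p = 0.433 and 0.414). Its relative Ero1lb had 181 and 129 counts in WT_CTCF and 171 and 194 in MUT_CTCF libraries. Those groups overlapped, and the log2 fold change was 0.23 (edgeR, adjusted p = 0.664), from 0.0062 to 0.49 with each library left out.

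Higd1a encodes a small protein of the inner mitochondrial membrane that acts on respiratory complexes. On chromosome 9 (121757678 to 121767118, minus strand), it had 1048 and 1078 counts in WT_CTCF and 1247 and 1150 in MUT_CTCF libraries. The MUT_CTCF libraries were the higher ones, and the groups did not overlap. The log2 fold change of 0.17 had a 95% confidence interval from 0.0061 to 0.33 and did not pass after adjustment (edgeR, adjusted p = 0.311). Higd2a, which has the same domain, had 1157 and 1154 counts against 1095 and 1124 and a log2 fold change of -0.064 (edgeR, adjusted p = 0.789). Of 11 tested HIG1 domain genes and ERO1 partners, 0 passed in edgeR's quasi-likelihood test or its exact test, nor did the 9 with an adjusted p in DESeq2, with 0 higher and 4 lower at an unadjusted p under 0.05. Pdia3 and Pdia6, disulfide isomerases of the endoplasmic reticulum, had log2 fold changes of -0.082 and -0.078 (edgeR, adjusted p = 0.14 and 0.197).

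Levels of different genes were compared as RPKM, the CPM value per kilobase of exon. Here CPM was scaled by the counts in tested genes and by TMM, as in the marker sums further on. In WT_CTCF mESCs the order was Kdm3a (38.2 ± 0.364), Ddit4 (37.1 ± 0.463), Higd1a (13.9 ± 0.286), Vegfa (11.6 ± 0.427), Ero1l (7.99 ± 0.595) and Mxi1 (6.79 ± 0.265; SD, n = 2 for each level). Below these were Bhlhe40 (3.37 ± 0.103), Ankrd37 (2.40 ± 0.249), Adm (0.443 ± 0.225) and Car9 (0.160 ± 0.136). The range from Kdm3a to Car9 shows that the list holds both abundant and barely detected transcripts. In MUT_CTCF mESCs Ddit4 (53.7 ± 4.17) lay above Kdm3a (35.1 ± 1.05), and Bhlhe40 (7.08 ± 0.337) reached the level of Mxi1 (7.20 ± 0.296). The libraries of Bhlhe40 and Mxi1 overlapped there, which they did not in WT_CTCF mESCs.

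**Figure D3:**
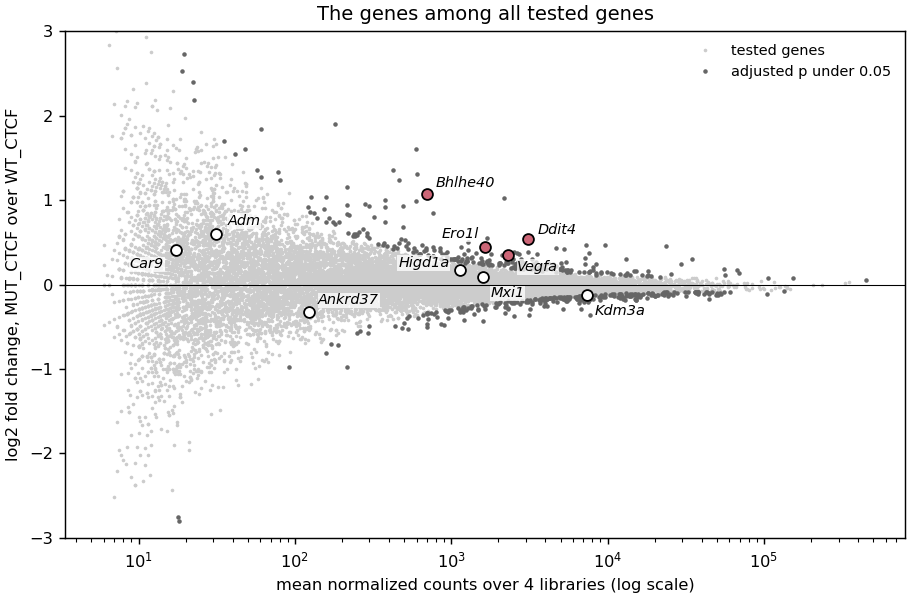
Log2 fold change of MUT_CTCF over WT_CTCF against the mean normalized counts over 4 libraries (log axis) for all tested genes, dark at an adjusted p under 0.05, with the 10 hypoxia-induced genes as large points, filled where called; 5 genes beyond 3 in size are not drawn. Bhlhe40 (1.07) and Ddit4 (0.53) lie above 0 as called genes, and Adm and Car9 lie among widely spread genes of low counts.

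Promoter sequences are shown for the core letters ACGTG and GCGTG, which HIF is known to bind. Whether HIF took part in the 4 higher calls was not tested. Sequences were taken from RefSeq (GRCm38.p6, 250 bases before to 50 after a gene start, written 5′ to 3′ on the strand of the gene), where 9 of the 10 genes, all but Bhlhe40, matched the table used here, with 14 starts. Capitals mark ACGTG or GCGTG on either strand, so CACGT and CACGC are the same letters read on the other strand.
Ddit4 (chr10:59951721-59952020, minus strand): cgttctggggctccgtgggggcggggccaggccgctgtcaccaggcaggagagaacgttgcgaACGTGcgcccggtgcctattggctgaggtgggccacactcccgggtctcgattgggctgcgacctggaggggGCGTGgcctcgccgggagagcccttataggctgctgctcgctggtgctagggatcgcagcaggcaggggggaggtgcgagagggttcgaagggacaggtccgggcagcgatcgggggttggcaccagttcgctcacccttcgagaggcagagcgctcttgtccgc
Ero1l (chr14:45318523-45318822, minus strand): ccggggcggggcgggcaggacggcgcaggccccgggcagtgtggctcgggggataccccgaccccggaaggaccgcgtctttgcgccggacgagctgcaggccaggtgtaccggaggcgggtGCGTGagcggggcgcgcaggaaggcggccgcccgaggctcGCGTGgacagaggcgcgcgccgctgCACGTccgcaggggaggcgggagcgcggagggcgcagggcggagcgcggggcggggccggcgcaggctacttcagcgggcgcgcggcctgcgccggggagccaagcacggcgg
Vegfa start 1 (chr17:46032328-46032627, minus strand): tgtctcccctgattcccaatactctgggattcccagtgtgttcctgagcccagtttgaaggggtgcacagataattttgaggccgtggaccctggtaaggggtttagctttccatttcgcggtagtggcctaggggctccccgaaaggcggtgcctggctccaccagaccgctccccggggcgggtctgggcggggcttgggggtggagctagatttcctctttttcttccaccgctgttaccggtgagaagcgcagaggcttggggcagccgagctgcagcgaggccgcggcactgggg
Vegfa start 2 (chr17:46025114-46025413, minus strand): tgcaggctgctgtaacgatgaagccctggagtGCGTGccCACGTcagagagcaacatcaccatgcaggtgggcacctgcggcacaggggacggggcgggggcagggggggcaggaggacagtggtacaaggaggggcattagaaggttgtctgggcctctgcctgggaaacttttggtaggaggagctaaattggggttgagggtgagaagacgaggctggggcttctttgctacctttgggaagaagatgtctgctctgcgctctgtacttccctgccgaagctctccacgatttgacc
Higd1a (chr9:121857747-121858046, minus strand): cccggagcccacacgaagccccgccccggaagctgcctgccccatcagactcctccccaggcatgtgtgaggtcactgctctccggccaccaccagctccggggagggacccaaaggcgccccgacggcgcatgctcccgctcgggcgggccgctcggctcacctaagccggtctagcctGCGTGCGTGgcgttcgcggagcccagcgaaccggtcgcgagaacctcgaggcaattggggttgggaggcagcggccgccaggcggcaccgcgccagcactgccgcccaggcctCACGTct
Ankrd37 (chr8:45999801-46000100, minus strand): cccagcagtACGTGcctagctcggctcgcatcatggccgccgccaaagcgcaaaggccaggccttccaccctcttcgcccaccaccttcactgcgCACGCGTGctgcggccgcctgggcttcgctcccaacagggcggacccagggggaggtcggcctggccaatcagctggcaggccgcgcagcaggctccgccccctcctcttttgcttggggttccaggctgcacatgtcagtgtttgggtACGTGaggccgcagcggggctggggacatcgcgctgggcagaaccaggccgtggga
Ddit4 held 2 matches, Ero1l 3, the first start of Vegfa 0 and its second start 2. This second start lies downstream of the first, within the gene. Higd1a, which did not pass, held 3, and Ankrd37, whose counts were lower in MUT_CTCF libraries, held 4. Of the promoters not printed, Adm held 2, Car9 1, the 3 starts of Kdm3a 1, 0 and 0 and those of Mxi1 0, 1 and 1. At least 1 match was found in 10 of the 14 starts, against 43.8% of 32851 promoters of the same length. ACGTG alone was in 8 of the 14 starts and 19.6% of all promoters, and GCGTG alone in 7 of the 14 and 32.4% of all promoters. CACGTG, the E-box, which holds ACGTG on both strands, was in 0 of the 14 and 7.15% of all promoters. TGATGNAA, the composite core of C/EBP and ATF4, was in 0 of the 14 and 3.97%, and the CTCF core consensus in 0 of the 14 and 0.335%. All motifs were searched on both strands. A match describes letters only, and no binding was measured in these libraries.

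**Figure D4:**
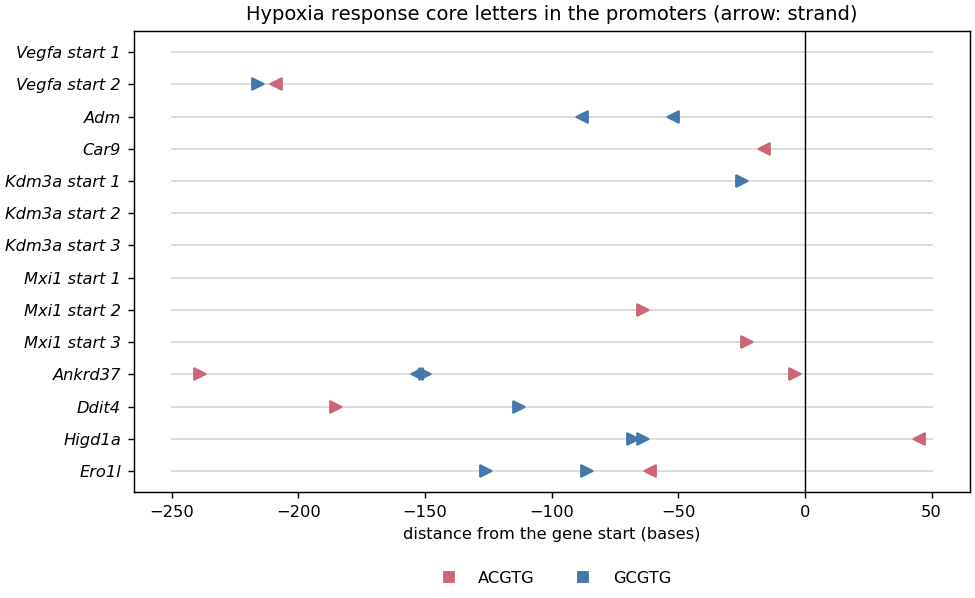
Places of ACGTG (red) and GCGTG (blue) in each of the 14 promoters by distance from the gene start in bases, from 250 before to 50 after, with arrows for the strand. The 3 matches of Ero1l lie between -128 and -63, and the 2 of Ddit4 at -187 and -115.

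The oxygen-sensing machinery was measured beside its targets. Of 10 HIF subunits and oxygen sensors, all tested, 2 were higher and 0 lower at an adjusted p under 0.05 in edgeR's quasi-likelihood test and in DESeq2, which gave 9 of them an adjusted p, and 3 were higher and 2 lower at an unadjusted p under 0.05. Egln3 and Egln1, hydroxylase genes that are themselves known HIF targets, were the higher ones. Egln3 had 172 and 207 counts in WT_CTCF and 343 and 394 in MUT_CTCF libraries, a log2 fold change of 0.95 (standard error 0.157, edgeR, adjusted p = 4.05e-05). Egln1 had 2482 and 2514 against 3174 and 2991 counts, a log2 fold change of 0.30 (standard error 0.054, edgeR, adjusted p = 0.000257). Both are thus like Vegfa and Ddit4 in that the MUT_CTCF libraries lay above the WT_CTCF libraries. Without a filter the log2 fold changes were again 0.95 for Egln3 and 0.30 for Egln1, but neither passed (edgeR, adjusted p = 0.108 and 0.103). These were the highest adjusted p-values over their 8 other settings, whose lowest were 4.72e-07 and 9.59e-06. Hif1a, the gene of the main alpha subunit, had 2498 and 2696 counts in WT_CTCF and 2394 and 2275 in MUT_CTCF libraries. Its RNA was not among the calls, with a log2 fold change of -0.16 (95% confidence interval from -0.28 to -0.043, edgeR, adjusted p = 0.133). RNA counts do not measure the alpha protein, and whether HIF activity differed between the lines was not tested.

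In a list of 50 other hypoxia-induced genes outside glycolysis, 47 were tested. By the quasi-likelihood test of edgeR, 19 were higher and 2 lower at an unadjusted p under 0.05. At an adjusted p under 0.05, 12 of the 47 were higher and 0 were lower by this test. DESeq2, with an adjusted p for 33 of them, called 8 higher and 0 lower. Without a filter edgeR called 6 of 50 higher, against 26 of the 23739 genes then tested. The median log2 fold change was 0.16. Leaving out WT_CTCF replicate 1 gave 0.081, and leaving out replicate 2 of that line gave 0.20, where the median of the 10 genes was 0.17, so the order of these medians depended on that library. Ndrg1, a stress-responsive gene, had 277 and 272 counts in WT_CTCF and 711 and 595 in MUT_CTCF libraries, a log2 fold change of 1.24 (standard error 0.126, edgeR, adjusted p = 1.01e-10). Bnip3, a receptor for mitophagy, went from 296 and 295 to 955 and 848 counts. In the fit of all 4 libraries its log2 fold change (1.60) was larger than any of the 10 genes. Loxl2, Ndufa4l2 and Anxa2 were also higher, with log2 fold changes of 1.3, 1.90 and 1.35. In glycolysis and transport of glucose or lactate, 17 of 27 tested genes were higher and 0 lower in edgeR's quasi-likelihood test. At an unadjusted p under 0.05, 19 were higher and 0 lower. DESeq2 gave 25 of the 27 an adjusted p and called 16 higher and 0 lower. Without a filter edgeR called 9 of the 27 higher, again against 26 of 23739 tested genes. Ldha, the lactate dehydrogenase, had a log2 fold change of 0.30 and Slc16a3, the lactate exporter, one of 1.03, and Slc2a1, Pfkp and Tpi1 had 0.47, 0.37 and 0.47. Bhlhe40 was thus close to Slc16a3 and Egln3 in size, and Vegfa, Ero1l and Ddit4 to Slc2a1 and Pfkp.

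Ddit4 also responds to ATF4, the transcription factor of the integrated stress response. Of 23 tested genes of that response, 6 were higher and 0 lower at an adjusted p under 0.05 in edgeR's quasi-likelihood test and in DESeq2 (22 with an adjusted p there). At an unadjusted p under 0.05, 12 were higher and 0 lower. Chac1, which degrades glutathione, had 286 and 213 counts in WT_CTCF and 464 and 538 in MUT_CTCF libraries and a log2 fold change of 1.00 (standard error 0.141, edgeR, adjusted p = 1.5e-06). Trib3, an inhibitor of ATF4, had 1034 and 923 against 1407 and 1262 counts and a log2 fold change of 0.44 (standard error 0.082, edgeR, adjusted p = 0.000308). The enzymes of serine and folate metabolism Psat1, Phgdh and Mthfd2 rose by less, with log2 fold changes of 0.16, 0.24 and 0.23. With no filter all 5 missed the threshold, as did Mthfd2 without WT_CTCF replicate 2 (edgeR, adjusted p = 0.0529). Atf4 itself had a log2 fold change of 0.00048 (95% confidence interval from -0.063 to 0.064, edgeR, adjusted p = 0.998). In the unfolded protein response, the endoplasmic reticulum list nearest to Ero1l, 0 of 20 tested genes were higher and 3 lower in edgeR's quasi-likelihood test and in DESeq2. At an unadjusted p under 0.05, 1 was higher and 7 were lower. The chaperone genes Hspa5, Hsp90b1 and Calr were the lower ones, with log2 fold changes of -0.12, -0.15 and -0.12, opposite in sign to Ero1l. None of the 3 passed without a filter, and Hsp90b1 did not pass with library size only (edgeR, adjusted p = 0.0519, from 0.0102 to 0.219 over its 8 other settings). Hspa5 also missed the threshold without WT_CTCF replicate 2, Calr without WT_CTCF replicate 1 and Hsp90b1 without either (edgeR, adjusted p = 0.223, 0.0972, 0.232 and 0.138). Each call named in the lists beside the 10 genes was lost without either MUT_CTCF library, where edgeR called 0 genes of the whole table. Ndrg1, Ndufa4l2, Anxa2, Slc2a1, Slc16a3, Pfkp, Tpi1, Kdm6b, Kdm3b, Hif1a, Pdia3, Pdia6, Mgea5, Gata6 and Zic1 share exon bases with a gene on the opposite strand, and Hsp90b1, Akt1s1 and Egfl7 with genes on both strands, so that reads of the overlaps cannot be assigned to 1 gene without strand.

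**Figure D5:**
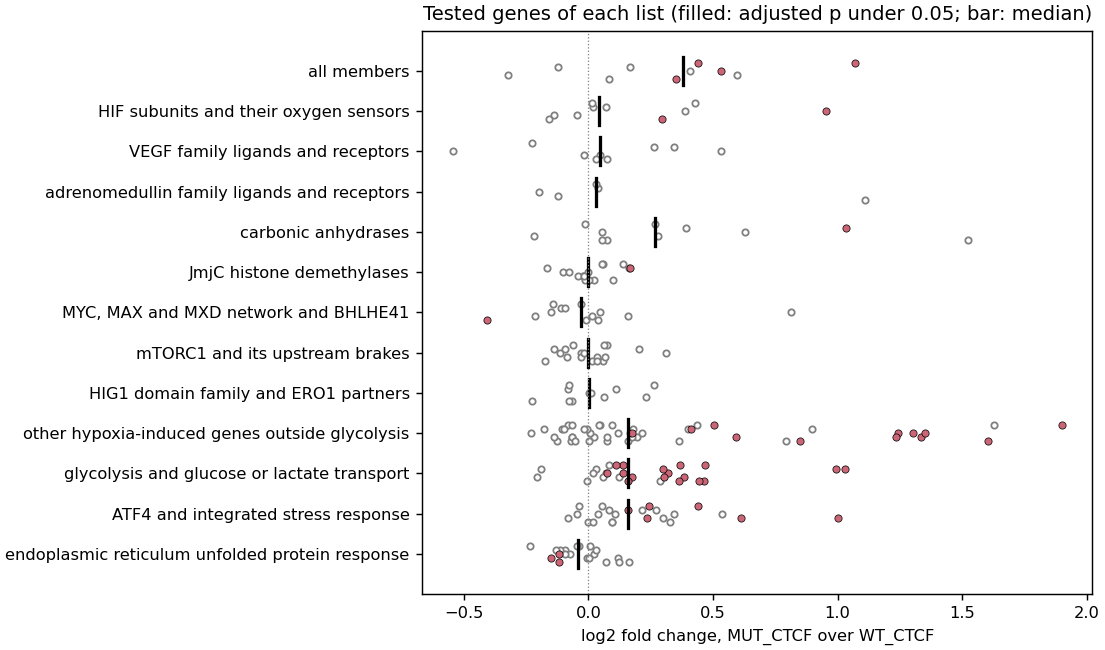
Log2 fold change of MUT_CTCF over WT_CTCF for every tested gene of each list, filled at an adjusted p under 0.05, with a black bar at the median of the list. The median of the 10 genes is 0.38, that of the other hypoxia-induced genes 0.16 and that of the mTORC1 list close to 0.

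Markers of mESCs were present in all libraries. Their summed level was 7189 and 7145 CPM in WT_CTCF and 7093 and 7105 in MUT_CTCF libraries, with Nanog the most abundant. Of 11 tested, Sox2 was higher and Dppa5a and Utf1 were lower at an adjusted p under 0.05 in edgeR, with log2 fold changes of 0.095, -0.099 and -0.21. At an unadjusted p under 0.05, 2 of these markers were higher, with Klf4 (0.098) beside Sox2, and 4 were lower, with Pou5f1 (-0.071) and Zfp42 (-0.060) beside the called pair, so that the close sums hold genes of both directions. Single genes passed in the marker lists of 3 other cell types. Of 9 tested trophectoderm markers 2 were lower, Cdx2 (-0.97 on the log2 scale) and Krt8 (-0.30), in a list led by Krt8 with summed levels of 60.1 and 54.7 against 48.8 and 51.2 CPM and no marker at 0. At an unadjusted p under 0.05, 1 trophectoderm marker was higher (Ascl2, 0.82) and 2 were lower, and 3 of the 9 values were positive. Of 6 tested neural markers Tubb3, the most abundant, was lower (-0.19), with sums of 403.2 and 404.1 against 365.2 and 372.9 and Fgf5 at 0 counts in every library. In the neural list 4 of 6 values were positive and, at an unadjusted p under 0.05, 2 markers were higher (Otx2, 0.55, and Zic1, 2.12) and 1 lower. Neither Otx2 nor Zic1 passed after adjustment (edgeR, adjusted p = 0.26 and 0.265), and Zic1 did not reach 10 counts in every library. The neural list had a median log2 fold change of 0.28, but -0.038 over the 4 genes with at least 10 counts in every library. This median was -0.039 with halved counts, and 0.023 and 0.029 without replicate 1 of WT_CTCF or of MUT_CTCF. Of 8 tested 2-cell-like markers Zscan4d (-0.53) and Gm5662 (-0.46) were lower, in a list led by Usp17la with sums of 77.7 and 76.2 against 60.4 and 58.3 and no marker at 0. None of these 8 had a positive value, and at an unadjusted p under 0.05, 5 were lower and 0 higher. Without a filter none of the 8 calls of marker genes held in edgeR, and in its exact test Sox2 and Dppa5a were lost. DESeq2 lost Krt8 and Gm5662 and gave Cdx2 no adjusted p, so that it called 0 of the 2 trophectoderm markers that had one, and Krt8 was also lost with library size only. Sox2, Utf1, Krt8 and Gm5662 missed the threshold with any 1 library left out (edgeR, adjusted p of at least 0.205, 0.0573, 0.131 and 0.0597), and Dppa5a without WT_CTCF replicate 1 (edgeR, adjusted p = 0.58). Of 8 tested endothelial markers, the cells on which Vegfa acts, 0 passed in edgeR's quasi-likelihood test or its exact test, nor did the 3 with an adjusted p in DESeq2, with 1 higher (Vwf, the most abundant) and 0 lower at an unadjusted p under 0.05. Emcn was at 0 in every library. Fibroblast, primitive endoderm and mesoderm lists also had 0 calls by these tests of edgeR and by DESeq2, which gave an adjusted p to 2, 0 and 1 of their genes, with 0, 2 and 0 higher and 1, 0 and 0 lower at an unadjusted p under 0.05. Lum, Fap and S100a4 were at 0 counts in every library, and Pdgfrb, Dab2 and Gsc led those lists. The smallest p in these 4 lists without calls belonged to Egfl7 and Vwf, Col3a1 and Thy1, Gata6 and Sox17, and Gsc and Wnt3, with log2 fold changes of 0.14 and 0.22, -1.52 and 0.20, 0.95 and 0.75, and -0.21 and -0.42 (edgeR, adjusted p of 0.0733 or more). The part of these cell states in the values of the 10 genes was not tested. Mitochondrial genes took 1.75% and 1.73% of the counts in WT_CTCF and 1.88% and 1.77% in MUT_CTCF libraries.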

How the data were processed

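RNA was sequenced from 2 WT_CTCF and 2 MUT_CTCF libraries. The authors trimmed reads (Trim Galore 0.4.4 in the submitters' processing notes), ran STAR against mm9 and deposited raw counts of uniquely mapped reads per gene from HTSeq-count (HTSeq 0.9.1), without normalization. Total counts per library ran from 40524694 to 40977464. A deposited table of the authors' own edgeR comparison, with fold changes and p-values, was not used. Gene names and places came from GENCODE M1 (mm9), which named 37205 of 37620 identifiers. Genes were kept by filterByExpr (minimum count 10), scaled by TMM and tested with edgeR 4.0.16 (R 4.3.3) by glmQLFit and glmQLFTest on condition alone, with Benjamini-Hochberg adjustment over 16264 genes. The standard error is the log2 fold change divided by the root of F, and the interval uses the t distribution. With 2 libraries a group, exact permutation has 0.333 as its smallest two-sided p, so tests rest on the spread shared over genes. Fits were tested on simulated data. The counts of calls over the 10 genes and over all tested genes were recomputed with other settings. So were the median and the log2 fold changes given for named genes. These settings were DESeq2 1.42.0, the exact test of edgeR, other scaling, other filters, a replicate block, halved counts and each library left out. The calls among the 10 genes were also recomputed with other thresholds. RPKM levels, the separation of libraries and promoter letters were not recomputed. Nor were Nanog, Pdgfrb, Dab2 and Usp17la, named only for their level. DESeq2 gave no adjusted p to 6622 of the genes. The genes and lists were chosen with earlier results of these data known. Named genes were all 10, Ctcf, Ogt and Mgea5, in each other list those with an adjusted p under 0.05 up to the 5 smallest p or otherwise the 2 smallest, and in marker lists the most counted gene and those at 0. Hif1a, Atf4, Calcrl and the relatives Bhlhe41, Kdm3b, Ddit4l, Ero1lb and Higd2a were added for their roles after the values were seen, and Klf4, Pou5f1, Zfp42, Ascl2, Otx2 and Zic1 for their direction.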

Additional observations from a re-analysis of the deposited data

How the results depend on the processing

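The log2 fold changes of the 10 genes kept their sign in every fit except that of Car9 without WT_CTCF replicate 2 (-0.27). DESeq2 called 141 genes higher and 161 lower over the whole table, and library size only 152 lower. Without a filter, 2 of the 10 genes were higher, with 26 higher and 3 lower over the 23739 genes then tested. Vegfa (log2 fold change 0.35) and Ero1l (0.44) lost their calls there. Other named genes that lost calls there had log2 fold changes close to those with the filter, such as Chac1 (1.00), Myc (-0.41) and Cdx2 (-0.98). At least 10 counts in every library gave 1 lower gene of the 10, Kdm3a (-0.12), with 288 higher and 300 lower over the 14990 genes then tested. This filter left Car9, Col3a1 and Zic1 untested, as halved counts did Zic1. With a fold change above 1.5 as well, 1 gene was called higher, against 0.326% of all tested genes. The replicate numbers pair no samples by the labels, and differences between replicates correlated by 0.019 between the lines over 11592 genes. With the replicate block 4 of the 10 genes were higher and 1 lower, Kdm3a (-0.12), with 326 higher and 372 lower over the whole table. With each library left out, the remaining library of a group is assumed to vary like the other group. The calls then ran from 0 to 4 of the 10 genes, from 0 to 140 higher and from 0 to 102 lower over the whole table, and the median from 0.17 to 0.34. The log2 fold change ran from 0.32 to 0.39 for Vegfa, 1.02 to 1.12 for Bhlhe40, 0.45 to 0.61 for Ddit4, 0.37 to 0.52 for Ero1l and -0.27 to 1.71 for Car9. The cause of these losses was not tested. Among the other named genes, 27 comparisons with another setting and 79 with a library left out lost a call, and 3 comparisons, Vwf, Kdm3b and Klf4 with the replicate block, gained one. Of the other named genes that were recomputed, the sign turned only for Atf4. Its log2 fold change near 0 was -0.00082 without a filter and ran from -0.019 to 0.018 with each library left out. DESeq2 gave no adjusted p for Adm, Car9 and Ankrd37 among the 10 genes, nor for Figf, Adm2, Ramp2, Car12, Ndufa4l2, Col3a1, Gata6, Sox17, Cdx2, Wnt3, Bhlhe41, Ero1lb, Ascl2, Otx2 and Zic1. Low counts limit Adm and Car9 most.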
